A study of Mus musculus with 2 samples.

Results

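The cyclin-dependent kinase inhibitors described here are the 7 genes of the CIP/KIP family (Cdkn1a, Cdkn1b and Cdkn1c) and the INK4 family (Cdkn2a, Cdkn2b, Cdkn2c and Cdkn2d). They were found by symbol among the array's probe sets that are annotated to a single gene, which gave 9 probe sets of 34958, for 7 genes of 18194. Cdkn1a and Cdkn1b have 2 probe sets each and the other 5 genes have 1. The samples were lenses of wild-type C57/BL6 mice at postnatal day 7 (P7), when the lens grows fast, and at postnatal day 60 (P60), in the young adult. At each age lenses were pooled and their total RNA was hybridised to 1 array, so no value has a replicate, no test between the ages is possible, and every difference is given by its size. How many animals each pool held, and of which sex, is not given in the sources used here.

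Cells divide when cyclins activate cyclin-dependent kinases (CDKs), which release E2F transcription factors from the retinoblastoma proteins. INK4 proteins bind CDK4 and CDK6 and keep D-type cyclins from them, whereas CIP/KIP proteins bind the assembled complexes of cyclins with their kinases, chiefly those of CDK2. In the lens, epithelial cells at the front divide and those at the equator leave the cell cycle and turn into fibre cells for life. Cdkn1b and Cdkn1c are known to act together in that exit, and mice without both have fibre cells that go on dividing.

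The values are MAS5 signal intensities on a linear scale. The median over both arrays together, 103.9, served as the floor of measurement, and a gene is called measured where its probe set lay above it at 1 age or more. For scale, 86 probe sets for receptors of smell, pheromones and taste, which lens cells are not known to use, had 95% of their values under 122.8. Log2 ratios are P60 over P7 after raising values under the floor to it, and folds that rest on a raised value are lower bounds, written "at least". A gene with several probe sets is given by the brightest, by mean log2 intensity. As a guide to measurement error, log2 ratios of probe sets for the same gene differed with a pooled SD of 0.58 over 4239 genes, which leaves out the differences between animals, pools and hybridisations.

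The inhibitor genes did not share a direction. Cdkn2b was at least 6.69-fold higher at P60 and Cdkn1c was 3.92-fold lower, while the other 5 stayed within 2-fold. Of all 13029 measured genes 11.5% passed 2-fold upward and 9.44% passed it downward. With 7 members, 1 in each direction is near these shares. At a limit of 1.5-fold 3 members were higher and 3 lower, where 22.7% and 20.1% of all measured genes were. The median log2 ratio of the 7 was 0.15, against 0.02 over all measured genes. That median is the ratio of Cdkn2a, which was near or under the floor, and with no floor it was 0.72. Ratios of Cdkn1b, Cdkn2a, Cdkn2b and Cdkn2c were above 0, and those of Cdkn1a, Cdkn1c and Cdkn2d below it. The dimmer probe set of Cdkn1b went the other way, which turns its direction and that of the family median (-0.69).

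**Figure D1:**
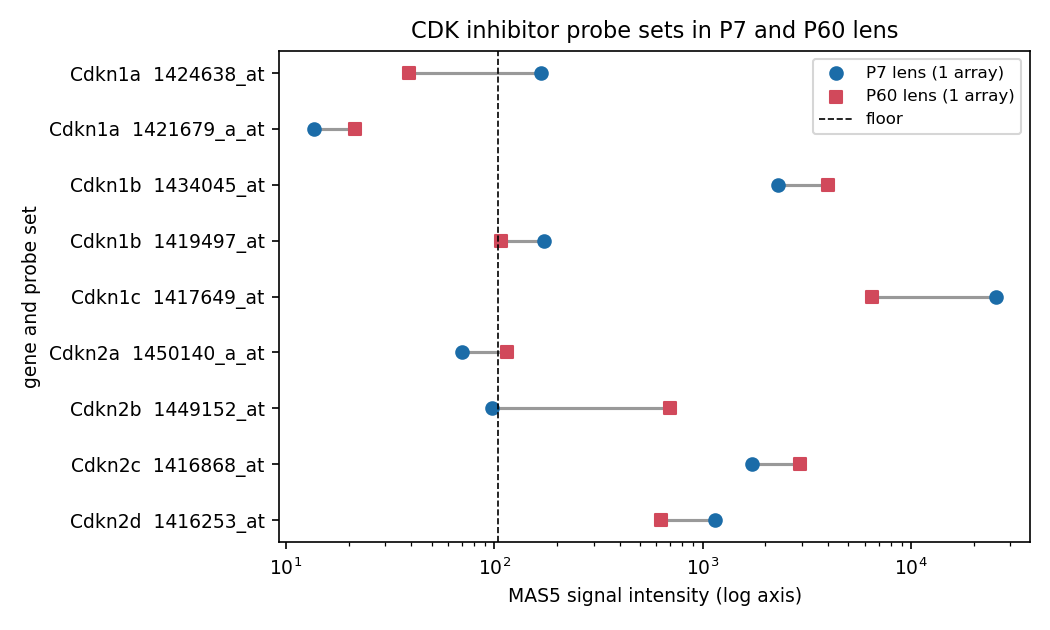
Signal intensity of the 9 probe sets of the 7 inhibitor genes on the P7 array (circles) and the P60 array (squares), on a log axis, with the floor of 103.9 as a dashed line. Cdkn1c lies at the right, with 25468 at P7 and 6491 at P60, and Cdkn2b goes from 97.3, under the floor, to 695.

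Of the CIP/KIP genes, Cdkn1c encodes p57Kip2 and is expressed from the maternal allele. Its probe set 1417649_at read 25468 at P7 and 6491 at P60. Both values are far above the floor, 245 and 62.5 times over it. The log2 ratio was -1.97, which is 3.37 times the SD between probe sets of a gene. Of all measured genes 202 (1.55%) had a ratio at or under that of Cdkn1c. Genes of like intensity (mean log2 intensity within 0.5) numbered 286, and 3 of them were as low. The other two, named after their values were seen, were Gpx1, a glutathione peroxidase gene, and Metap1, a methionine aminopeptidase gene, 4.0-fold and 5.76-fold lower. With 1 probe set far over the floor, Cdkn1c could be moved by 3 of the other settings, and it was -1.96 with a pseudocount of 50, -1.93 with quantile normalisation and -1.99 with median centring. In RNA from whole lenses, fewer cells that express a gene and less of its RNA per cell cannot be told apart.

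Cdkn1b encodes p27Kip1, the other inhibitor known for its part in fibre cell exit from the cycle. Its brighter probe set, 1434045_at, read 2292 at P7 and 4010 at P60, a log2 ratio of 0.81 or 1.75-fold higher. Its dimmer probe set, 1419497_at, read 173 at P7 and 108 at P60, a log2 ratio of -0.69 or 1.61-fold lower. The probe sets thus disagree in direction, and the P60 value of the dimmer one is 1.04 times the floor and under the receptor level of 122.8. Averaged over both, the ratio was 0.061. The ratio of 5′ to 3′ signal for beta-actin, a sign of RNA integrity, was 0.785 at P7 and 0.606 at P60, and for Gapdh 1.39 and 1.29. Its part in the split between the Cdkn1b probe sets was not tested.

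Cdkn1a encodes p21, the inhibitor that p53 induces after DNA damage. Its probe set 1424638_at read 167 at P7 and 39.0 at P60, under the floor, which makes it at least 1.61-fold lower. On the deposited values without a floor the same probe set was 4.29-fold lower (log2 ratio -2.10), so this gene passes 2-fold or not according to how low values are treated. The other probe set, 1421679_a_at, read 13.6 and 21.4 and was under the floor at both ages, with no usable ratio. Cdkn1a was therefore measured at P7 alone.

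The INK4 genes Cdkn2a and Cdkn2b are neighbours on chromosome 4. Cdkn2b encodes p15Ink4b, which is known to be induced by TGF-beta. Its probe set 1449152_at read 97.3 at P7, just under the floor, and 695 at P60. It was at least 6.69-fold higher, a log2 ratio of 2.74, and 7.14-fold on the deposited values. The bound depends on the floor and came down to a ratio of 1.65 when the floor was raised to 221.7. Cdkn2b was at least 2-fold higher in each of the 10 other settings. Those that change the choice of probe set could not move it, since 1449152_at is its only probe set here. In the settings that could move it, its log2 ratio lay between 1.65 and 2.84.

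Cdkn2a encodes the INK4 inhibitor p16Ink4a and, from another first exon and reading frame, the ARF protein that stabilises p53. Its probe set 1450140_a_at read 70.1 at P7 and 115 at P60, which gave a ratio of 0.15. The P60 value is 1.11 times the floor and under the receptor level of 122.8, so Cdkn2a was near or under the floor at both ages. The suffix of this probe set marks one that several transcripts of a gene share, and its signal does not separate the products. Mtap, the gene on the other side of Cdkn2a, read 5154 at P7 and 6511 at P60 (ratio 0.34), while Dmrta1, beyond Cdkn2b, read 18.3 and 20.3, under the floor.

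Cdkn2c and Cdkn2d encode p18Ink4c and p19Ink4d, INK4 inhibitors found in many tissues during development. Cdkn2c (probe set 1416868_at) read 1724 at P7 and 2940 at P60, 1.71-fold higher with a log2 ratio of 0.77. Cdkn2d (probe set 1416253_at) read 1151 at P7 and 629 at P60, 1.83-fold lower with a ratio of -0.87. Both were well above the floor at both ages. Their ratios, of opposite sign, were 1.32 and 1.49 times the SD between probe sets of a gene. Of all measured genes 16.7% were at least as far up as Cdkn2c and 11.9% at least as far down as Cdkn2d. Ratios of this size are common on these arrays. In the same 3 settings Cdkn2c lay between 0.70 and 0.75 and Cdkn2d between -0.95 and -0.82.

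**Figure D2:**
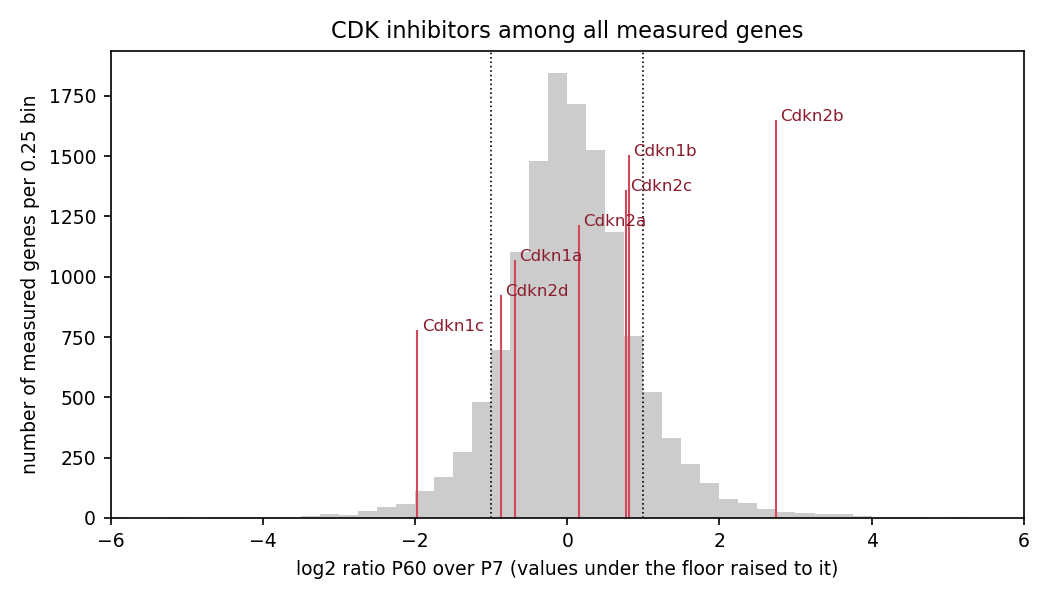
Number of measured genes by log2 ratio of P60 over P7 in bins of 0.25 (grey), with the 7 inhibitor genes as red lines, whose heights only separate the labels, and 2-fold as dotted lines. Cdkn1c at -1.97 and Cdkn2b at 2.74 lie in the tails and the other 5 in the body, and 3 genes lie outside the axis.

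The start-site sequences of Cdkn2b, Cdkn2c and Cdkn2d are shown because these INK4 genes had ratios of 2.74, 0.77 and -0.87. Each is the 250 bases before a RefSeq start site (GRCm38.p6, minus strand, written 5′ to 3′ as the gene is read). Capitals mark matches, on either strand, to the GC box GGGCGG, the CRE TGACGTCA, the CCAAT box CCAAT, the E-box CACGTG or the E2F motifs TTTCGCGC and TTTGGCGC. No match overlapped another.
Cdkn2b, chr4:89311033-89311282: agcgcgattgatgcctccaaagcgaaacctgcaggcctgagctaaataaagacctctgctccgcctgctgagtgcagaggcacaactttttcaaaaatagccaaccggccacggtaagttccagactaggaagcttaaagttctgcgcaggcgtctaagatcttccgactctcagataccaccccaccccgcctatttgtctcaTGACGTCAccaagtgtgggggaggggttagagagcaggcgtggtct
Cdkn2c, chr4:109666757-109667006: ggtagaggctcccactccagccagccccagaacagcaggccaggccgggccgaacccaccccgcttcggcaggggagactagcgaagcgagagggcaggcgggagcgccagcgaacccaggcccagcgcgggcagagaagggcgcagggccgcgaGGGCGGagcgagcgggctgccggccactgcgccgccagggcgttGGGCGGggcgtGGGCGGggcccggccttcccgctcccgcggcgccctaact
Cdkn2d, chr9:21291210-21291459: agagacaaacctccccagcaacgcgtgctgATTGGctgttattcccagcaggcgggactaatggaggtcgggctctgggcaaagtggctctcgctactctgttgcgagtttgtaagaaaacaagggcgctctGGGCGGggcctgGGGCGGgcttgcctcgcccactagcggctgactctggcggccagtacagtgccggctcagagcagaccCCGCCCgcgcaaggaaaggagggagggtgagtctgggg
The Cdkn2b window held 1 CRE match, which starts 46 bases before the start site, and no GC box. A CRE was found in 1.55% and a GC box in 32.7% of all 32851 windows of the same length. The windows shown for Cdkn2c and Cdkn2d held 3 GC boxes each, and that of Cdkn2d also a CCAAT box, which 33.8% of all windows held. Neither the E-box (6.02% of windows) nor the E2F motifs (0.654%) were in these 3 windows. G and C made up 53.6% of the Cdkn2b window, 77.2% of the one shown for Cdkn2c and 63.6% for Cdkn2d, with a median of 52.4% over all windows. Cdkn2c has a second RefSeq start site, whose window (chr4:109665373-109665622, not shown) held no GC box and 42.8% G and C, and the array values do not tell the starts apart. Letters that match a motif are a description of the sequence and no sign of a bound factor.

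The kinases that the inhibitors act on and their cyclins are given by inhibitor family. Counts past 2-fold in each list stand beside 11.5% of all measured genes higher and 9.44% lower. All 5 genes measured for INK4 kinases and their D-type cyclins stayed within 2-fold, with a median of 0.24: Cdk4 had a ratio of -0.42, Cdk6 of 0.44, Ccnd1 of 0.37, Ccnd2 of 0.24 and Ccnd3 of -0.31. Probe sets of Ccnd2 ranged from -1.54 to 0.56 and those of Ccnd1 from -0.95 to 0.57. Those of Cdk4 ranged from -0.69 to 0.003, and the other probe set of Ccnd3 stood at 0.59. With the dimmest probe sets the median of these 5 genes was -0.69. Of 6 CIP/KIP targets measured 4 passed 2-fold downward and none upward, with a median of -1.08. Ccnb2, for a cyclin of mitosis, read 559 at P7 and 99.9 at P60, at least 5.38-fold lower, and its kinase gene Cdk1 was 3.89-fold lower (716 and 184). Ccne2 was 2.13-fold and Ccna2 2.08-fold lower. Cdk2 (269 and 234) and Ccne1 (188 and 184) had ratios of -0.20 and -0.03. Ccne1 was above 0 with quantile normalisation, and its other probe set stood at -1.05. The CIP/KIP target median lay below 0 in all 10 other settings, from -1.53 to -0.93. The list's count of lower genes was 2 with a pseudocount of 50 and 5 with the dimmest probe sets.

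Among activators of CDKs 1 of 5 measured genes was 2-fold lower. That gene was Cdk7, the kinase that activates other CDKs, with probe sets from -1.47 to 0.51. Of its partners, Ccnh had a ratio of -0.57 and Mnat1 of -0.28. The phosphatase genes Cdc25a and Cdc25b stood at 0.52 and -0.58, and the other probe set of Cdc25a at -0.17.

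The retinoblastoma and E2F genes had a median of -0.49, with 1 of 13 at least 2-fold higher and 2 lower. Rbl2, a retinoblastoma relative typical of resting cells, was 2.31-fold higher (389 and 901, its other probe set at 0.27). E2f7 was at least 3.44-fold lower and Tfdp1, the DNA-binding partner of E2F proteins, 2.64-fold lower. E2f4 was under the floor at P7 and at least 1.54-fold higher. Of 19 measured proliferation genes 7 passed 2-fold downward and none upward, with a median of -0.85. Ube2c, a ubiquitin enzyme of mitotic exit, was 4.73-fold lower and the thymidine kinase gene Tk1 at least 4.07-fold. Mcm2 (0.24, its other probe set at -1.07) and Rrm1 (-0.04) had the highest ratios of that list.

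Genes listed for the breakdown of inhibitor proteins had ratios below 0 in 10 of 14 measured, where the median over all measured genes was 0.02. At least 2-fold lower were 5 (3 with the floor at 221.7) and higher 1, with a median of -0.65 that stayed between -0.75 and -0.60 in the other settings. Cks2, of a family of small CDK-binding proteins, was 6.94-fold lower (2482 at P7 and 358 at P60), and its probe sets read -3.19 and -2.80. Its relative Cks1b, of the same list, had a ratio of -0.60. Whether Cks2 takes part in the breakdown of inhibitors was not tested. Rnf123, the ubiquitin ligase known to act on p27Kip1 in the cytoplasm, was 4.75-fold lower (4983 and 1049). Ddb1, of a ligase that acts on p21, had a ratio of 1.02, which was under 1 after median centring. Dtl, of the same list, went the other way, with 364 at P7 and 67.7 at P60, at least 3.50-fold lower. The deubiquitinase gene Usp19 had a ratio of 0.58. The probe sets measure RNA, and no inhibitor protein was measured.

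Upstream of Cdkn2b, 4 of 14 measured genes of the TGF-beta pathway were at least 2-fold higher and 1 lower, with a median of 0.39. The ligand gene Tgfb3 was at least 34.1-fold higher, from 76.3 at P7 to 3542 at P60. Tgfb1 was 4.35-fold higher on its brighter probe set (149 and 646), and its other probe set stood at -0.41. The inhibitor of SMAD signalling Skil was 2.11-fold lower and the receptor gene Tgfbr2 1.80-fold lower. With the dimmest probe sets the median was -0.01 and 2 genes were higher. The part of this pathway in the ratio of Cdkn2b was not tested.

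Of 14 measured Polycomb genes, whose products are known to silence the Cdkn2a and Cdkn2b locus, 4 were at least 2-fold higher and 2 lower. The methyltransferase gene Ezh2 was 3.0-fold lower (1879 and 626) and its partner Suz12 2.25-fold lower, with all 6 of its probe sets below 0. Ezh1, a relative of Ezh2, was 2.91-fold higher with its other probe set at -1.16, and Cbx7 at least 3.32-fold higher with its other probe set at -0.08. The median was 0.25, and with the dimmest probe sets it was -0.08 and 1 gene was 2-fold higher.

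Among genes known to be induced by p53, as Cdkn1a is, 3 of 15 measured were at least 2-fold higher and 2 lower (median 0.16). Of all measured genes 11.5% were higher and 9.44% lower. Phlda3 was 3.32-fold and Perp 2.51-fold higher. Pmaip1 was at least 3.67-fold lower, and Aen 2.02-fold lower with probe sets from -1.28 to 0.45. Of 12 measured regulators of inhibitor genes 1 was 2-fold higher and 3 lower, with a median of -0.12. The lower count was 1 with a pseudocount of 50 and with each other choice of probe set, and the median was 0.13 with the dimmest probe sets and 0.36 with those without a suffix. Foxo3, a forkhead factor known to raise Cdkn1b, was 4.96-fold higher (977 and 4848) on its brighter probe set, with the other at 0.36. Foxo1 was 1.83-fold higher, and its 3 probe sets were all above 0. Plagl1, itself imprinted and known to raise Cdkn1c, was 2.80-fold lower (1254 and 447), and Men1 2.07-fold lower with a second probe set at 0.73.

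Around Cdkn1c, in its imprinted domain, 8 of 11 genes were measured besides Cdkn1c itself, and 1 was at least 2-fold higher and 2 lower (median -0.15). Kcnq1ot1, the non-coding RNA that silences the domain on the paternal allele, was at least 2.58-fold lower, and its 3 probe sets read from -1.45 to -1.23. Tssc4 was 2.05-fold lower and Osbpl5 4.86-fold higher. Nap1l4 (-0.82), Kcnq1 (-0.65), Tspan32 (0.36), Trpm5 (0.42) and Cd81 (0.86) stayed within 2-fold on the floored values, and Phlda2, Slc22a18 and Ascl2 were under the floor at both ages. The domain's median changed sign in 4 of 10 settings. Of 15 other imprinted growth genes measured, Plagl1 among them, 8 were at least 2-fold lower (5 with the dimmest probe sets) and 1 higher, with a median of -1.34. The growth factor gene Igf2 was at least 34.4-fold lower and the non-coding RNA Rian at least 17.1-fold, while Sgce was 4.30-fold higher and Zdbf2 at least 1.28-fold.

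A list of other genes, most of them for proteins that bind or inhibit CDKs, held 2 of 9 at least 2-fold higher and 1 lower. Wee1, the kinase that holds CDK1 inactive, was 2.80-fold higher (342 and 956), and Cdk2ap2 2.06-fold. Pkmyt1, a relative of Wee1, had a ratio of -0.93. Cdkn2aip, whose product binds ARF, was 3.66-fold lower, and its other probe set stood at -0.35. The list's median was -0.11, and 0.02 with quantile normalisation.

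**Figure D3:**
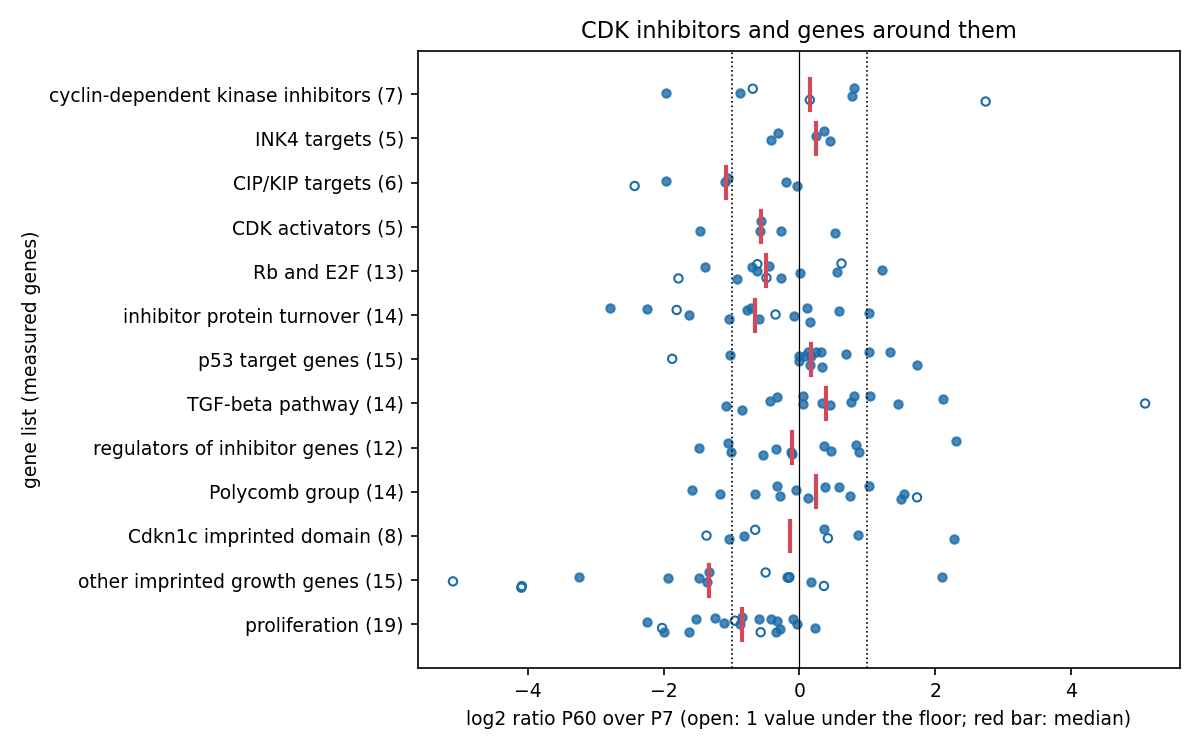
Log2 ratio of P60 over P7 for each measured gene of the inhibitor family and of 12 lists around it (points; open where 1 value was under the floor), with the list median as a red bar and 2-fold as dotted lines. The inhibitors spread from -1.97 to 2.74 around a median of 0.15. The lowest list medians are those of other imprinted growth genes (-1.34), CIP/KIP targets (-1.08) and proliferation genes (-0.85). Medians of the INK4 target, p53 target, TGF-beta and Polycomb lists lie above 0 and those of the other lists below it.

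Lens fibre markers were high in both pools, and markers of lens epithelium and of other cells differed between them. All 14 measured lens fibre markers were within 2-fold (median -0.05), and their summed intensity was 774893 at P7 and 776032 at P60. Most of these probe sets lie near the highest intensities of the arrays, 88698 at P7 and 97477 at P60, where like readings do not exclude a difference. Of 10 lens epithelium markers 4 were at least 2-fold higher (2 with the dimmest probe sets) and 1 lower (0 with the floor at 221.7), with sums of 65128 and 105708. Aqp1, a water channel of the epithelium, was 5.50-fold higher, and the epithelial factor gene Foxe3 2.61-fold lower.

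Of 13 measured vascular endothelium markers 8 were at least 2-fold lower at P60 (5 with the floor at 221.7), beside the lower Cdkn1c. Their sums over 15 genes were 5560 and 1443, and 11 of the 15 were at or under the floor at P60. Cldn5, a tight junction gene of endothelium, read 1086 at P7 and 70.4 at P60. Of 9 fibroblast markers 6 were measured, and 4 were at least 2-fold higher and 1 lower beside Cdkn2b, with sums over all 9 of 4368 and 12981. Pdgfra alone gave 2732 of the P7 sum and 5892 of the P60 sum, and its other probe set stood at 0.29. Which cells of the lens gave its signal was not tested. Col1a1, Dcn and Lum were under the floor at both ages, and Col3a1 was at least 1.52-fold lower. Fmod, a matrix proteoglycan gene, was 23.7-fold higher, while Mgp was at least 5.45-fold lower. Of the corneal list 4 of 8 genes were measured and Aldh3a1 alone passed 2-fold (62.6 and 18639), with the corneal keratin gene Krt12 under the floor at both ages. Photoreceptor markers (3 of 9 lower, 1 higher) and pigment cell markers (2 of 7 lower, 1 higher) were also measured. So were leukocyte markers (1 of 7 lower, 1 higher) and 2 erythroid genes (both within 2-fold as bounds). At P60 6 of 10 leukocyte markers and all 5 erythroid genes on the array were at or under the floor. No deposited value was 0. The part of these cells in the ratios of Cdkn1c and Cdkn2b was not tested.

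**Figure D4:**
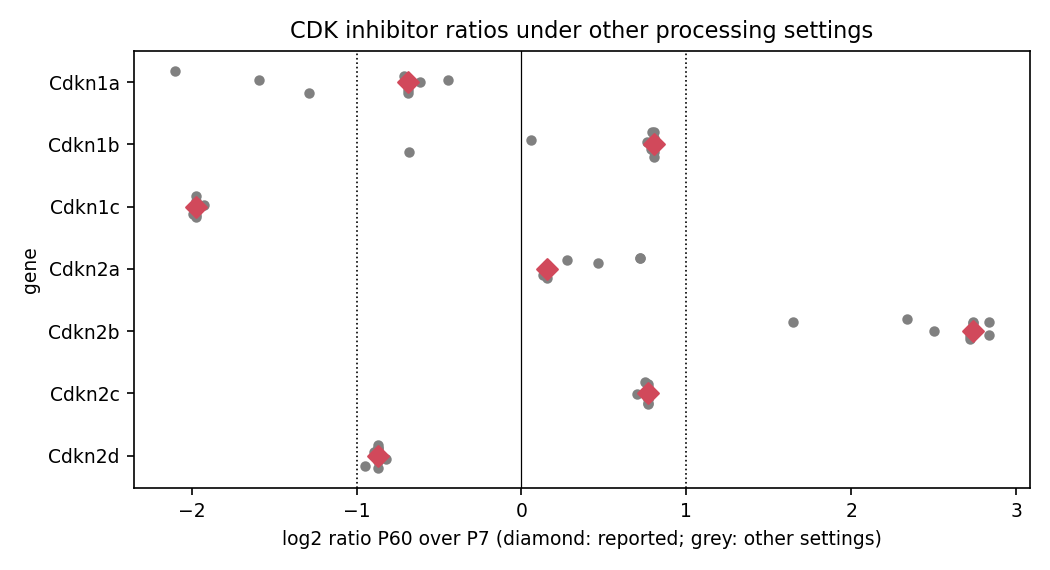
Log2 ratio of each inhibitor gene as reported (diamonds) and under the other processing settings that gave a value (grey points), with 2-fold as dotted lines. Cdkn1c lies near -1.97 and Cdkn2b from 1.65 to 2.84, Cdkn1b crosses 0 with its dimmest probe set, and Cdkn1a passes 2-fold lower in 3 of 9 settings.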

How the data were processed

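The authors deposited 1 signal intensity per probe set and array on a linear scale, for 45101 probe sets, made with MAS5 per the submitters' processing notes. This method scales each array, and the mean without the lowest and highest 2% was 500.0 on both. The software version is not given in the sources used here, nor are detection calls or a genome build. Symbols came from the platform annotation, updated by gene number: 34958 probe sets had 1 symbol, 932 several and 9211 none. At P7 52.2% and at P60 47.8% of probe sets were above the floor.

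Computed here with Python 3.11.15, numpy 2.4.6 and pandas 2.3.3 were the floor, log2 ratios and counts at 2-fold. The script was tested on simulated data. No test between ages was made, and the number of arrays limits the precision. Named are every member and the 2 highest and 2 lowest measured genes of each other list. So are all measured genes of lists of 8 or fewer and of the imprinted domain, though some marker lists are given by counts. Cks1b, Dtl and Pdgfra are named besides, after their values were seen. With 2 arrays each gene has 1 ratio, so no likeness of pattern was ranked. The members and lists were chosen with earlier results of these data known. Settings tried were other floors, no floor, a pseudocount of 50, quantile normalisation, median centring, other choices of probe set, and 1.5-fold and 3-fold limits. A floor at the receptor level of 122.8 was chosen after seeing the data.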

Additional observations from a re-analysis of the deposited data

How the results depend on the processing

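Cdkn1c, Cdkn2c and Cdkn2d moved by less than the SD of 0.58 between probe sets in the 3 settings that could move them, a pseudocount and both scalings, since each has 1 probe set above all floors tried. Cdkn1a was -1.59 with a floor at the 35th percentile (55.4), -2.10 with no floor and -1.29 with a pseudocount of 50, and in each of these 3 settings 2 inhibitor genes were at least 2-fold lower in place of 1. With no floor 15.3% of all measured genes were 2-fold lower, against 9.44%. With a floor at the 65th percentile (221.7) Cdkn2b was 1.65 and the family median 0.77, over 5 measured genes, as Cdkn1a and Cdkn2a were under that floor. With the dimmest probe sets Cdkn1b was -0.69 and the median -0.69, and with the mean over probe sets Cdkn1b was 0.061. At a limit of 1.5-fold 3 genes were higher and 3 lower, where 22.7% and 20.1% of all measured genes were. At 3-fold the counts were 1 and 1, and the share of all measured genes past that limit was not counted. Neither Cdkn1c nor Cdkn2b, the inhibitor genes past 2-fold, changed sign. Some genes of other lists did with their dimmer probe sets, and not every such case is given beside them. Of the other values, for lists and all genes, 73 of 697 moved past their spread or by over 1.5 times, and the cause was not tested. No paired analysis was possible because each age has 1 array. Values near the floor, those of Cdkn1a, Cdkn2a, Cdkn2b at P7 and the dimmer Cdkn1b probe set, limit what can be read from these genes.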
